A study of Rattus norvegicus with 4 samples.

Results

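The genes described here encode the heat shock proteins and the J-domain chaperones that work with them, measured in poly(A) RNA from cultured hippocampal neurons of rat embryos. A gene was a member if its symbol in the array's probe-to-gene table named an HSP70, HSP90, HSP110, small heat shock protein, mitochondrial chaperonin or numbered J-domain (Dnaja, Dnajb, Dnajc) gene, with Hspa5 left out, and if a probe set carried that symbol alone. The rule used no measured value and gave 61 of the 14497 genes tested, 22 heat shock protein genes and 39 J-domain genes. Where several probe sets named a gene, the probe set with the greatest average value stood for it. One further probe set, assigned jointly to the inducible HSP70 genes Hspa1a, Hspa1b and Hspa1l, carried several symbols and was left out, so the most strongly heat-inducible HSP70 genes are not analysed here.

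In all, 2 cultures had been treated with an shRNA against Gld2 and 2 with a scrambled shRNA, with strain, age, vector and time in culture not given in the sources used here. Gld2 (gene symbol Tent2) is a cytoplasmic poly(A) polymerase, and the comparison asks which poly(A) RNAs differ when it is knocked down. The RNA had been held on poly(U) Sepharose and released by heat before labelling, so a value reflects both how much of a transcript was present and how well its tail held it. Those contributions cannot be told apart here.

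Heat shock proteins are chaperones that keep other proteins folded. HSP70 proteins bind exposed stretches of unfolded clients in a cycle driven by ATP. J-domain proteins bring clients to HSP70 and start ATP hydrolysis, and HSP110 proteins release the ADP. HSP90 finishes the folding of kinases and receptors, small heat shock proteins hold unfolded clients without ATP, and the chaperonin of Hspd1 and Hspe1 encloses proteins in mitochondria. In neurons, HSP70 and its J-domain partners also strip clathrin from endocytosed vesicles and keep the release machinery of synapses folded. Under stress, heat shock factor 1 switches many of these genes on together.

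Values are log2 RMA values, and each difference is the Gld2 shRNA mean minus the scrambled shRNA mean, so -1 is a 2-fold lower value. A value depends on the probes as well as on the RNA, so values of different probe sets are not compared as amounts of RNA, and bright or dim refers to signal alone. The medians of the 4 arrays over all probe sets were 8.41 to 8.48. The targeted Tent2 stood at 9.50 and 9.35 after Gld2 shRNA, against 10.73 and 10.67 after scrambled shRNA, so it was lower in both cultures labelled as knockdown. The neuron marker Tubb3 gave values between 12.89 and 12.95 in the 4 cultures, and the astrocyte marker Gfap gave values between 13.18 and 13.30. Some other markers of these cells differed more, and some less. Of 10 neuron markers 7 lay below 0, and of 8 astrocyte markers 3 did, with the largest differences in Gad2 (-0.24) and Gja1 (-0.39). Whether the cultures within a group came from separate preparations is not stated in the labels, so the p-values rest on a spread among cultures that may be technical.

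Most chaperone genes differed little between the groups. The small heat shock protein gene Hspb1 rose 1.45-fold, and 2 members fell, the HSP70 gene Hspa13 by 1.78-fold and the J-domain gene Dnajb5 by 1.28-fold. These 3 of 61 members, 4.92%, passed an adjusted p under 0.05 (limma, Benjamini-Hochberg over the 14497 genes), against 4.1% of all genes, so the share called was near the background. In single directions, 1 member rose against 1.69% of all genes, and 2 fell against 2.41%. At an unadjusted p under 0.05, 15 members stood out, 6 higher and 9 lower, 24.6% against 25.4% of all genes. The median difference was -0.01 over the members and -0.02 over all genes, and the median absolute difference was 0.0891 and 0.109 in the same order. Members were brighter than genes in general, with a median level of 10.48 against 9.17. At or above the latter level, the median difference was -0.07 over 41 members and -0.06 over all genes, with 7.32% and 5.24% called. Of all 14497 genes 6699 lay above 0, but only 2356 of the 7249 at or above that level did. Genes below it therefore lay above 0 more often, among them dim members such as Hspa12b, Dnajb8 and Dnajc5b. For 57 members the 95% confidence interval lay wholly within a 1.5-fold change in either direction, 93.4% against 94.5% of all genes. The 4 members whose interval reached past 1.5-fold were Hspa13, Hspb1, Hspa12b and Hspb8, named after their values were seen.

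**Figure D1:**
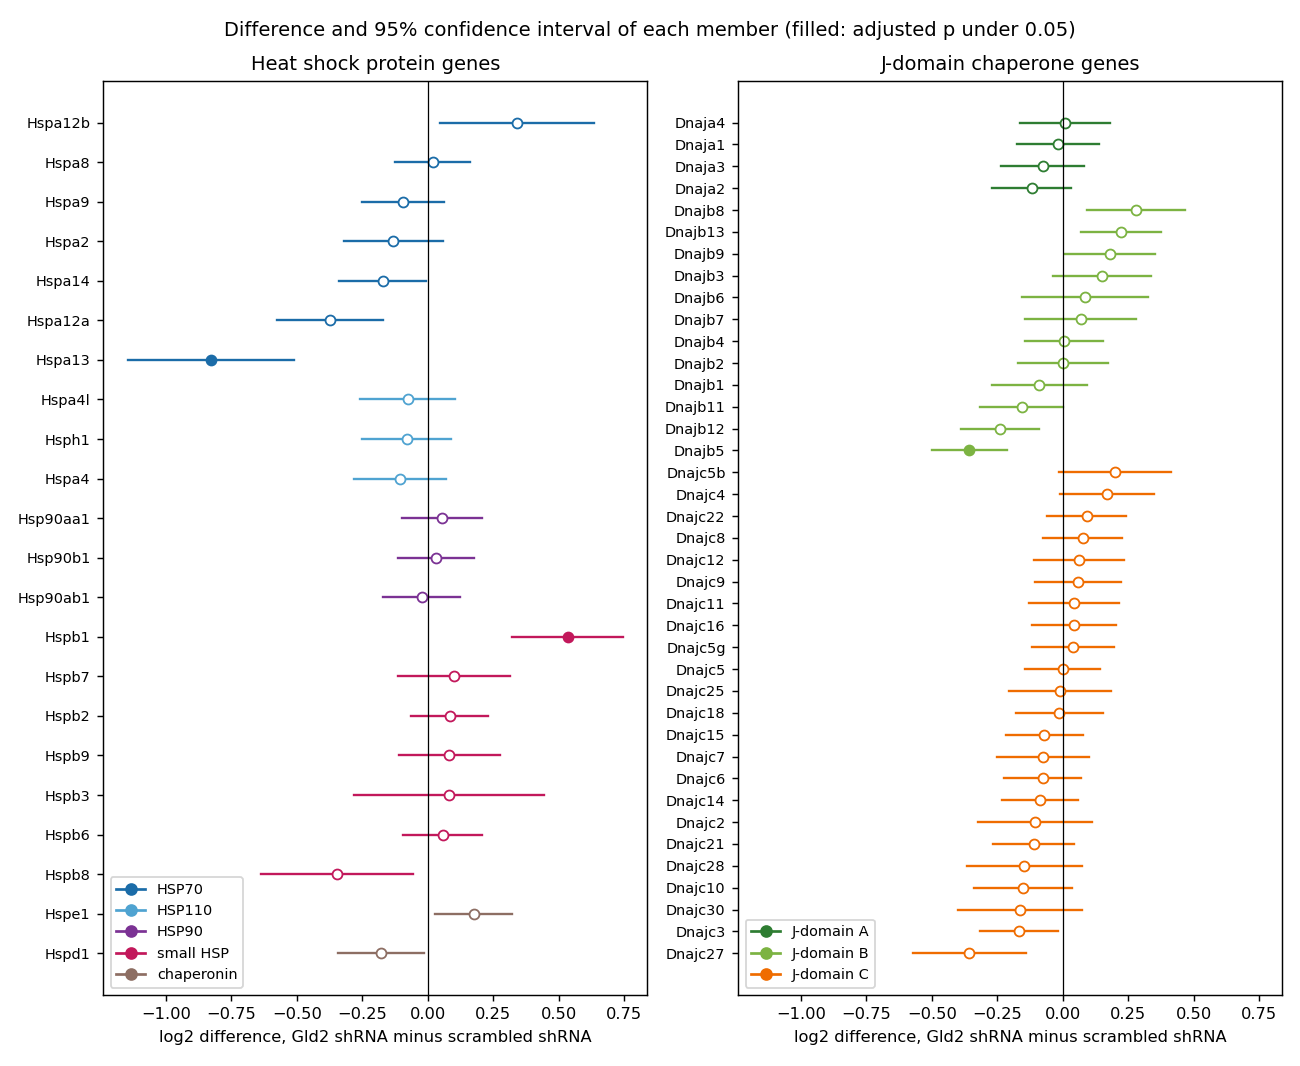
Log2 difference (Gld2 shRNA minus scrambled shRNA, horizontal axis) of each of the 61 members, grouped by class, with points for the difference, lines for the 95% confidence interval from limma (2 cultures in each group) and filled points for an adjusted p under 0.05. The filled points are Hspb1 at 0.53, Dnajb5 at -0.36 and Hspa13 at -0.83, while the HSP90 and J-domain A genes lie close to 0.

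Among the HSP70 genes, the largest difference was in Hspa13, which encodes an HSP70 of the endoplasmic reticulum that has the ATPase domain but lacks the usual client-binding part. Hspa13 (probe set 10752738) stood at 10.25 and 9.89 after Gld2 shRNA, against 10.99 and 10.81 after scrambled shRNA. Both knockdown cultures lay below both controls, and the second was the lowest. Group means were 10.07 ± 0.250 (SD, n = 2) against 10.90 ± 0.126 (SD, n = 2), which differ by -0.83 (standard error 0.129, 95% interval -1.14 to -0.51). The Benjamini-Hochberg adjusted p from limma was 0.0322. That is 56.3% of the control value. Without scrambled shRNA replicate 1 the difference was -0.74 (adjusted p = 0.271 by limma) and without scrambled shRNA replicate 2 it was -0.92 (adjusted p = 0.164 by limma), so the call was lost in those fits, where only the Gld2 shRNA pair gives a spread. The call was also lost with centring on the named genes (-0.76, adjusted p = 0.0560 by limma), with all probe sets tested (adjusted p = 0.0773) and without moderation across genes (adjusted p = 0.322). The difference lay between -1.01 and -0.65 over the fits without 1 culture.

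The other 6 HSP70 genes did not pass the test. Hspa12a and Hspa12b encode distant relatives of HSP70, the latter known from endothelial cells. Hspa12a stood at 11.17 and 10.97 after Gld2 shRNA, against 11.43 and 11.46 after scrambled shRNA, with no overlap (difference -0.37, 95% confidence interval -0.58 to -0.17, adjusted p = 0.0675, limma). Its genomic span was 161392 bp, against a median of 18043 bp over all genes. With the dependence of values on gene length removed its difference was -0.24 (adjusted p = 0.116, limma). It passed in 5 of the 15 other settings: with a prior variance that depends on the level (adjusted p = 0.000403), with either filter on dim genes, with median centring, and without Gld2 shRNA replicate 1 (-0.47, adjusted p = 0.0205). Hspa12b stood at 7.70 and 8.05 against 7.55 and 7.52, a difference of 0.34 (95% confidence interval 0.05 to 0.63, adjusted p = 0.157, limma). Its knockdown cultures differed from each other by more than the controls did. The difference was 0.16 without Gld2 shRNA replicate 2 and 0.52 without Gld2 shRNA replicate 1, where it passed (adjusted p = 0.0179, limma), as it did with median centring (adjusted p = 0.0195). Of 8 endothelial and mural markers, 0 passed the test in limma and 3 had an unadjusted p under 0.05, Cldn5 at 0.29 and Flt1 at 0.22 above, and Pdgfrb at -0.34 below. The log2 summed level of those 8 markers was 11.59 and 11.63 after Gld2 shRNA, against 11.59 and 11.61 after scrambled shRNA. Their part in the Hspa12b difference was not tested. In cultures measured whole, fewer cells of a type and less RNA per cell cannot be told apart.

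Hspa8 encodes the constitutive HSC70, the partner of most cytosolic J-domain proteins. It stood at 13.77 and 13.76 after Gld2 shRNA, against 13.73 and 13.75 after scrambled shRNA, a difference of 0.02 (95% confidence interval -0.13 to 0.16). Hspa8 has 5 probe sets under its symbol, 3 with differences of 0.02 and the others at 0.18 and 0.32, all above 0. Near-identical copies of this gene may share their signal. Hspa9, the mitochondrial HSP70 mortalin, was at -0.09 and Hspa2, known from testis, at -0.13. Hspa14 encodes the HSP70 that acts at the ribosome together with the J-domain protein of Dnajc2. Hspa14 stood at 8.74 and 8.85 after Gld2 shRNA, against 8.99 and 8.94 after scrambled shRNA (difference -0.17, adjusted p = 0.189, limma), and its partner Dnajc2 had a difference of -0.11 with overlapping groups. Over the 7 HSP70 genes, 1 fell, 0 rose and 6 did not pass, with a median of -0.13.

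The HSP110 genes, whose products recycle HSP70, all had differences slightly below 0. Their mean levels were above the median level of all genes, where 4893 of 7249 genes lay below 0. Hspa4 stood at 11.65 and 11.51 against 11.69 and 11.68, a difference of -0.10, with both knockdown cultures below the controls. The groups overlapped for Hsph1 (-0.08) and Hspa4l (-0.08), and 0 of the 3 passed in limma, with 0 at an unadjusted p under 0.05.

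The HSP90 genes lay close to 0. Hsp90aa1, the stress-inducible cytosolic form, stood at 12.35 and 12.28 after Gld2 shRNA, against 12.27 and 12.25 after scrambled shRNA. Its difference was 0.05 (95% confidence interval -0.10 to 0.21). Hsp90ab1, the constitutive form, stood at 13.38 and 13.36 against 13.42 and 13.37, with overlapping groups (difference -0.02, 95% confidence interval -0.17 to 0.13). Hsp90b1, which encodes GRP94 of the endoplasmic reticulum, was at 0.03 (95% confidence interval -0.11 to 0.18). None of the 3 passed in limma, and none had an unadjusted p under 0.05. The sign of Hsp90ab1 changed between settings, from -0.08 to 0.05, while the others stayed above 0 in the 15 settings tried.

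Among the members only a small heat shock protein gene rose. Hspb1 encodes HSP27, a small heat shock protein induced by stress and linked to actin dynamics and to survival of neurons after injury. Hspb1 (probe set 10761128) stood at 10.48 and 10.27 after Gld2 shRNA, against 9.87 and 9.82 after scrambled shRNA. Both knockdown cultures lay above both controls by more than either pair of replicates differed. Mean values were 10.38 ± 0.149 (SD, n = 2) against 9.84 ± 0.0359 (SD, n = 2), which differ by 0.53 (standard error 0.0859, 95% interval 0.32 to 0.75). The Benjamini-Hochberg adjusted p from limma was 0.0344. Leaving out scrambled shRNA replicate 1 ended the call (0.56, adjusted p = 0.263 by limma) and so did leaving out scrambled shRNA replicate 2 (0.51, adjusted p = 0.253 by limma). It was also lost with that dependence on gene length removed (0.48, adjusted p = 0.0698 by limma), where Hspb1, with a span of 1662 bp, is a short gene, with all probe sets tested (adjusted p = 0.0816) and without moderation (adjusted p = 0.304).

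Hspb8, whose product works with the co-chaperone Bag3 to send misfolded proteins to autophagy, lay the other way. Hspb8 stood at 8.50 and 8.15 after Gld2 shRNA, against 8.65 and 8.70 after scrambled shRNA, a difference of -0.35 (95% confidence interval -0.64 to -0.06, adjusted p = 0.149, limma). The difference was -0.17 without Gld2 shRNA replicate 2 and -0.52 without Gld2 shRNA replicate 1 (adjusted p = 0.0180, limma), so the size depended on which knockdown culture was kept. With all cultures kept, Hspb8 passed with a prior variance that depends on the level and with median centring. Bag3 itself was at 0.07. Hspb2, Hspb3, Hspb6, Hspb7 and Hspb9 lay between 0.06 and 0.10, and the class of 7 had 1 rise, 0 falls and a median of 0.08. Hspb6, which encodes HSP20, stood at 11.19 and 11.19 against 11.10 and 11.16. Small heat shock proteins are also made by astrocytes. Of 8 measured astrocyte markers 1 passed the test, Gja1, which fell (-0.39, adjusted p = 0.0351, limma), a call lost without Gld2 shRNA replicate 2 (adjusted p = 0.0851) or scrambled shRNA replicate 1 (adjusted p = 0.286) or 2 (adjusted p = 0.280). Of these 8 markers 2 had an unadjusted p under 0.05, Gja1 and Fgfr3 (-0.19), both lower, while 5 had differences above 0. The log2 summed level of the 8 was 15.31 and 15.26 after Gld2 shRNA, against 15.25 and 15.27 after scrambled shRNA. Of 9 microglia markers 0 passed in limma and 2 had an unadjusted p under 0.05, both higher. All 9 had differences above 0. Their log2 summed level was 10.90 and 10.93 after scrambled shRNA and higher in both Gld2 shRNA cultures, at most 11.14. These 9 markers were dim, with mean levels of at most 8.73. That is below the median level of all genes (9.17), where differences above 0 were more common. Hspb2, Hspb3, Hspb7 and Hspb9 also lay below that level. Neither set was compared with genes of similar level. Markers of the oligodendrocyte lineage (7 measured), of dividing cells (5) and of neurons (10) had 0 calls in limma and medians of 0.03, 0.12 and -0.03, with 1, 2 and 1 of them at an unadjusted p under 0.05. The part of other cells in the Hspb1 and Hspb8 differences was not tested.

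**Figure D2:**
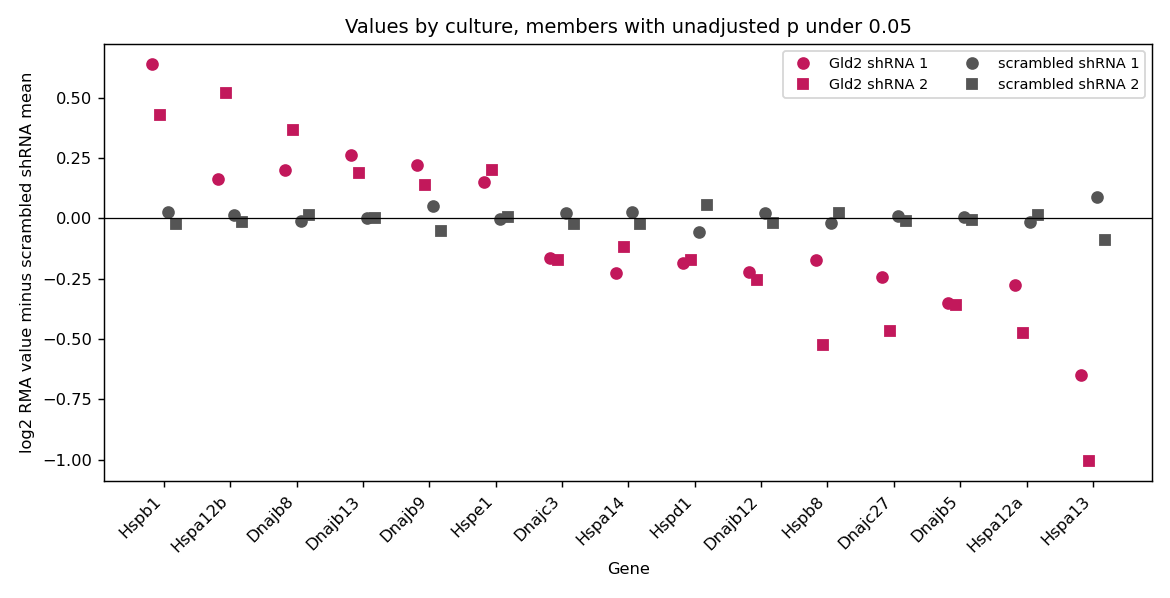
Log2 RMA value of each culture minus the scrambled shRNA mean of that gene (vertical axis) for the 15 members with an unadjusted p under 0.05, with pink symbols for Gld2 shRNA, grey for scrambled shRNA, circles for replicate 1 and squares for replicate 2. The knockdown cultures lie on one side of both controls for all 15 genes, and Hspb8, Hspa12b and Hspa13 have the widest gaps between their knockdown cultures.

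The mitochondrial chaperonin genes lay in opposite directions. Hspd1 encodes HSP60, the barrel of the chaperonin, and Hspe1 encodes HSP10, its lid. Hspd1 stood at 11.32 and 11.33 after Gld2 shRNA, against 11.45 and 11.56 after scrambled shRNA (difference -0.18, 95% confidence interval -0.34 to -0.01, adjusted p = 0.173, limma). Hspe1 stood at 11.60 and 11.65 against 11.45 and 11.46 (difference 0.18, 95% confidence interval 0.03 to 0.32, adjusted p = 0.151, limma). Neither gene passed over all genes, and in neither did the groups overlap. In the 15 other settings, Hspd1 passed in 1 and Hspe1 in 2. A further, dimmer probe set under the symbol Hspd1 had a difference of 0.13, opposite in sign to the one used. Among the 7 measured mitochondrial members, which also include Hspa9, Dnaja3, Dnajc11, Dnajc15 and Dnajc30, 0 rose and 0 fell in limma, 1 at an unadjusted p under 0.05 in each direction, and the median was -0.08.

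Hspd1 and Hspe1 are read away from each other from a shared promoter, and in the RefSeq annotation of GRCr8 their starts lie 290 bases apart. Most of the stretch between them, the 250 bases next to the Hspe1 start, is shown because it carries heat shock elements upstream of both genes. The promoters of Hspa8 and Hsph1 are shown as other members with such an element, and those of Hspb1 and Hspa13 as the members with the largest rise and fall. Each run is the 250 bases before the gene's start, 5′ to 3′ on the gene's strand, from RefSeq, with capitals marking matches to the heat shock element.
Hspe1, chr9:64084077-64084326, plus strand: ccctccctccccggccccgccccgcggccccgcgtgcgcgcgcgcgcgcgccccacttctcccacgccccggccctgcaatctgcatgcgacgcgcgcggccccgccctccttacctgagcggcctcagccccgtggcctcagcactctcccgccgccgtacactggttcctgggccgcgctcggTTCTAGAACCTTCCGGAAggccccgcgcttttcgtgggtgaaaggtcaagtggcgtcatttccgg
Hspa8, chr8:50080264-50080513, plus strand: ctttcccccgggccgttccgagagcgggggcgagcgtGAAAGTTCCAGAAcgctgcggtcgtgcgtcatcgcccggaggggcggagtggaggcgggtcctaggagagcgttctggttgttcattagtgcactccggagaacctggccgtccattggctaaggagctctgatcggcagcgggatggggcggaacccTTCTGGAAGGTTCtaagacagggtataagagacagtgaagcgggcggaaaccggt
Hsph1, chr12:10427118-10427367, plus strand: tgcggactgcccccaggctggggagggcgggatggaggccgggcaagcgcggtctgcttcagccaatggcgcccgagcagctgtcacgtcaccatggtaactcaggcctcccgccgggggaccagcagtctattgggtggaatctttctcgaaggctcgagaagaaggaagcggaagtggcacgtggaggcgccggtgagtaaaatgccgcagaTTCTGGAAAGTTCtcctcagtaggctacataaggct
Hspb1, chr12:26432302-26432551, minus strand: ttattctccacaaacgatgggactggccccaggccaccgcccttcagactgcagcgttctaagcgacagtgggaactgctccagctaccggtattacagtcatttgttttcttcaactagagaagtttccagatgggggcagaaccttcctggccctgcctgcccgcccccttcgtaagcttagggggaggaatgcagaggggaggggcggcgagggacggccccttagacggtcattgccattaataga
Hspa13, chr11:27876899-27877148, minus strand: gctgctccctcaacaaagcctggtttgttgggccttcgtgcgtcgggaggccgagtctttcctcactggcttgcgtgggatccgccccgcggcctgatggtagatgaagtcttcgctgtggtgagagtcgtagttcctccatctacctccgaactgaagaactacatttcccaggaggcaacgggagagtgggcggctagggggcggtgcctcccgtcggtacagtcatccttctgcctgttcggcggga
The element searched was TTCNNGAANNTTC on both strands, where N is any base, the alternating repeat that trimers of heat shock factor 1 bind. RefSeq gave promoters for 49 of the 61 members and for 11946 of the genes tested. The element was in 4 of the 49 member promoters, 8.16%, those of Hspa8, Hspd1, Hspe1 and Hsph1, and in 53 of all 11946, 0.444%. In the chaperonin promoter 2 matches overlap, between 65 and 48 bases before the start of Hspe1. The same stretch of DNA is counted for Hspd1 and for Hspe1. Hspa8 has matches at 213 to 201 and at 55 to 43 bases before its start, and Hsph1 has 1 at 36 to 24. These 4 genes had differences of 0.02, -0.18, 0.18 and -0.08 in the order named, 2 above and 2 below 0, and 0 of them passed in limma. The windows of Hspb1 and Hspa13 hold no exact match, which says only that these letters are not in them. An ER stress element and an interferon-stimulated response element were also searched. They were in 2 and 3 of the 49 member promoters, 4.08% and 6.12%, against 0.126% and 3.11% of all 11946.

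Genes that heat shock factor 1 is known to induce lay evenly on both sides of 0. Of 20 listed, 16 were measured, and most of those are themselves members. Hspa1a, Hspa1b, Hspa1l and Ahsa1 were not among the genes tested. Of the 16, 1 rose (Hspb1), 1 fell and 14 did not pass, with 8 values below 0 and a median of -0.01 against -0.02 over all genes. The share called was 12.5%, 2 of 16 genes, against 4.1% of all genes. The gene that fell was Hmox1, the heme oxygenase induced by oxidative stress as well as by heat (10.70 and 10.74 against 11.31 and 11.33, difference -0.60, adjusted p = 0.00771, Benjamini-Hochberg, limma). Hmox1 no longer passed when scrambled shRNA replicate 1 was left out (-0.61, adjusted p = 0.125 by limma), when replicate 2 of that group was left out (-0.59, adjusted p = 0.130) or when variances were not moderated (adjusted p = 0.215). The classical stress marker Dnajb1 stood at 10.51 and 10.36 after Gld2 shRNA, against 10.49 and 10.55 after scrambled shRNA, a difference of -0.09 with overlapping groups. Bag3 was at 0.07, Chordc1 at -0.05, Stip1 at 0.05, Fkbp4 at 0.01 and Cryab, a small heat shock protein gene under another symbol, at 0.06. The factors Hsf1, Hsf2 and Hsf4 and the binding protein Hsbp1 lay between -0.12 and -0.02, and 0 of these 4 passed in limma, with 0 at an unadjusted p under 0.05.

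In the J-domain A class, which holds the closest relatives of bacterial DnaJ, 0 of 4 genes passed in limma and 0 had an unadjusted p under 0.05. Dnaja1, a main partner of HSC70 in the cytosol, stood at 12.62 and 12.59 after Gld2 shRNA, against 12.66 and 12.58 after scrambled shRNA (difference -0.02, 95% confidence interval -0.17 to 0.14). Dnaja2 stood at 10.30 and 10.24 against 10.39 and 10.38, below both controls in both cultures (difference -0.12). Dnaja4 stood at 8.73 and 8.74 against 8.79 and 8.66, with overlapping groups (difference 0.01). The mitochondrial Dnaja3 was at -0.08.

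The J-domain B class held 1 change, the fall of Dnajb5, a cytosolic and nuclear J-domain protein. With 1 of 12 genes called, the share was 8.33%, against 4.1% of all genes. Dnajb5 (probe set 10868428) stood at 11.38 and 11.37 after Gld2 shRNA, against 11.74 and 11.72 after scrambled shRNA. Within each group the values lay close together, and the groups were far apart by comparison. The group averages were 11.37 ± 0.00573 (SD, n = 2) against 11.73 ± 0.00961 (SD, n = 2), which differ by -0.36 (standard error 0.0589, 95% interval -0.50 to -0.21). The Benjamini-Hochberg adjusted p from limma was 0.0366. The standard error exceeds the replicate SDs because limma draws each gene's variance towards that of all genes. Dnajb5 differed by -0.36 to -0.35 over the fits without 1 culture. The call was lost without Gld2 shRNA replicate 2 (adjusted p = 0.0833 by limma) and without scrambled shRNA replicate 1 or 2 (adjusted p = 0.317 and 0.271 by limma), while the difference itself hardly moved. It was also lost with centring on the named genes (-0.29, adjusted p = 0.0833), with all probe sets tested (adjusted p = 0.0865) and without moderation (adjusted p = 0.191).

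The other 11 J-domain B genes did not pass. Dnajb13, known from the axoneme of cilia and sperm, stood at 9.26 and 9.19 after Gld2 shRNA, against 8.999 and 8.998 after scrambled shRNA (difference 0.22, adjusted p = 0.104, limma). Dnajb13 passed in 1 other setting, cyclic loess. Of 4 measured markers of ciliated ependymal cells 0 passed in limma, with Rsph1 at 0.23 the only one at an unadjusted p under 0.05. Their log2 summed level was 10.63 and 10.64 after Gld2 shRNA, against 10.52 and 10.51 after scrambled shRNA, higher in both knockdown cultures, and their part in the Dnajb13 difference was not tested. Apart from Foxj1, the ciliated markers had mean levels below the median level of all genes (9.17), as did Dnajb13 at 9.11. Differences above 0 were more common there. Dnajb8, known from testis, was at 0.28 (7.70 and 7.86 against 7.49 and 7.51, adjusted p = 0.100, limma). Dnajb2, a neuronal J-domain protein that delivers ubiquitinated clients, stood at 11.18 and 11.28 against 11.27 and 11.19 and had a difference of 0.00. Dnajb6, whose product holds back aggregation of polyglutamine proteins, was at 0.08 with overlapping groups, and its knockdown cultures, at 10.55 and 10.82, lay on either side of the controls. Dnajb4 was at 0.00, Dnajb3 at 0.15 and Dnajb7 at 0.07.

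J-domain and HSP genes of the endoplasmic reticulum lay on both sides of 0. Dnajb12 encodes a J-domain protein of its membrane, and stood at 10.68 and 10.65 after Gld2 shRNA, against 10.92 and 10.88 after scrambled shRNA (difference -0.24, 95% confidence interval -0.39 to -0.09, adjusted p = 0.0886, limma). Dnajb12 passed in 4 of the 15 other settings: the prior variance that depends on the level, both filters on dim genes, and median centring. Dnajb11, whose product ERdj3 hands clients to the HSP70 of the lumen, was at -0.16 (10.41 and 10.40 against 10.61 and 10.52). Dnajc10, which encodes the disulfide reductase ERdj5, was at -0.15. Dnajb9 encodes ERdj4, a J-domain protein induced by the unfolded protein response, and lay the other way at 10.25 and 10.16 against 10.07 and 9.97 (difference 0.18, adjusted p = 0.184, limma). Dnajb9 passed in 1 of the 15 other settings, cyclic loess. The 8 measured genes of this compartment also include Hspa13, Hsp90b1, Dnajc3 and Dnajc16. Of these 8 genes, 1 fell, 0 rose and 7 did not pass, so 12.5% were called, against 4.1% of all genes. Their median was -0.15, and for 5 genes both knockdown cultures lay below both controls, against 34.5% of all genes, while for 2 they lay above, against 24%. All 8 had mean levels above the median level of all genes, where differences ran lower. Of all genes at or above that level, 48.5% lay below both controls and 18.2% above, with a median difference of -0.06.

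Dnajc3 encodes p58IPK, which resides mostly in the endoplasmic reticulum and is also known as an inhibitor of the interferon-induced kinase PKR. Dnajc3 stood at 9.17 and 9.16 after Gld2 shRNA, against 9.35 and 9.31 after scrambled shRNA (difference -0.17, 95% confidence interval -0.31 to -0.02, adjusted p = 0.163, limma). The knockdown cultures lay below both controls. Dnajc3 passed in 1 of the 15 other settings, without genes under the median level. The gene of PKR itself, Eif2ak2, rose 2.87-fold, a log2 difference of 1.52 (10.86 and 10.69 against 9.19 and 9.33, adjusted p = 0.000696, Benjamini-Hochberg, limma). It belongs to 13 measured interferon-induced genes that all rose, with a median of 3.44 and a lowest difference of 1.40. The largest differences of that list were those of Ifit3 (4.16), Oasl (4.05), Mx1 (3.71), Rsad2 (3.64) and Mx2 (3.47), all products of the antiviral response. The largest absolute difference among the chaperone genes was the -0.83 of Hspa13.

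**Figure D3:**
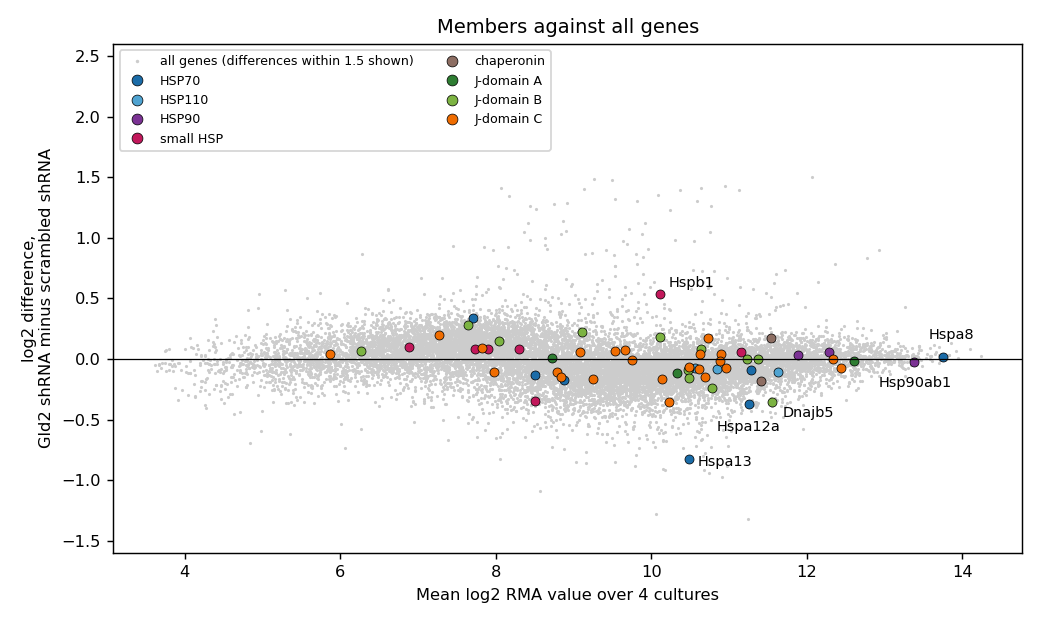
Log2 difference (vertical axis) against the mean log2 RMA value over the 4 cultures (horizontal axis), with members coloured by class and all other genes in grey, where differences beyond 1.5 are not drawn. Most members lie within the cloud of all genes, Hspa13 at -0.83 and Hspb1 at 0.53 lie at its edges, and Hspa8 and Hsp90ab1 are at the bright end near 0.

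The J-domain C class, the most varied, had 23 measured genes, of which 0 passed in limma and 2 had an unadjusted p under 0.05, both lower, Dnajc27 and Dnajc3. Dnajc27 joins a J-domain to a GTPase domain like that of Rab proteins. It stood at 10.16 and 9.93 after Gld2 shRNA, against 10.41 and 10.39 after scrambled shRNA (difference -0.36, 95% confidence interval -0.57 to -0.14, adjusted p = 0.0833, limma). Without Gld2 shRNA replicate 1 it passed at -0.47 (adjusted p = 0.0209, limma), and it passed in 5 of the 15 other settings in all. The largest difference above 0 was that of Dnajc5b, a relative of the cysteine string protein gene. Dnajc5b stood at 7.26 and 7.47 against 7.14 and 7.19, with no overlap (difference 0.20, adjusted p = 0.217, limma), and Dnajc4 followed at 0.17. For 7 of the 23 genes both knockdown cultures lay below both controls, 30.4% against 34.5% of all genes, and for 4 above, 17.4% against 24%. The class median was -0.01.

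The synaptic chaperones differed little. Dnajc5 encodes cysteine string protein alpha, which with HSC70 keeps the vesicle release machinery folded in nerve terminals. It stood at 12.34 in all 4 cultures, with a difference of 0.00 to 2 decimals (95% confidence interval -0.14 to 0.14). Dnajc6 encodes auxilin, the neuronal J-domain protein that calls HSC70 to clathrin coats. It stood at 12.41 and 12.39 after Gld2 shRNA, against 12.49 and 12.46 after scrambled shRNA, a difference of -0.08 (95% confidence interval -0.22 to 0.07). With the dependence of values on gene length removed, Dnajc6, which spans 166244 bp, was at 0.06. Its widely expressed relative Gak was at -0.08 as reported. Counting Dnajb2 and Hspa8, 0 of the 4 measured genes of this group passed in limma, with 0 at an unadjusted p under 0.05, and their differences lay between -0.08 and 0.02.

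Other J-domain C genes act in the nucleus, in mitochondria or with single clients. Dnajc8, of the spliceosome, was at 0.08 and Dnajc9, a histone chaperone, at 0.06. Dnajc21, of ribosome biogenesis, was at -0.11. Dnajc7, which carries clients between HSP70 and HSP90, was at -0.07, and Dnajc12, the partner of aromatic amino acid hydroxylases, at 0.06. The mitochondrial Dnajc11, Dnajc15 and Dnajc30 were at 0.04, -0.07 and -0.16. Dnajc14, Dnajc16, Dnajc18, Dnajc22, Dnajc25, Dnajc28 and Dnajc5g lay between -0.15 and 0.09, none with an unadjusted p under 0.05.

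The helpers of the chaperones had no calls. Of 24 measured co-chaperones and nucleotide exchange factors 0 rose and 0 fell in limma, and at an unadjusted p under 0.05 there were 1 higher and 5 lower, against 9.24% and 16.2% of all genes. The median was -0.02. Fkbp5, a glucocorticoid-induced co-chaperone of HSP90, stood at 8.74 and 8.64 against 9.06 and 8.91 (-0.29), Tomm70 at -0.23, Bag2 at -0.18 and Hspbp1 at 0.17. Of 12 measured subunits of the cytosolic chaperonin CCT and of prefoldin 0 passed in limma, and 1 had an unadjusted p under 0.05, Cct3 (10.50 and 10.52 against 10.75 and 10.74, -0.23, adjusted p = 0.0892). Cct4, Cct7 and Pfdn1 followed at -0.14, -0.12 and 0.10. Among 8 measured genes of the heat shock and J-domain families under other symbols, 0 passed in limma and 1 had an unadjusted p under 0.05, Cryaa at 0.20, with Sec63, Hscb and Gak following at -0.17, -0.12 and -0.08.

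**Figure D4:**
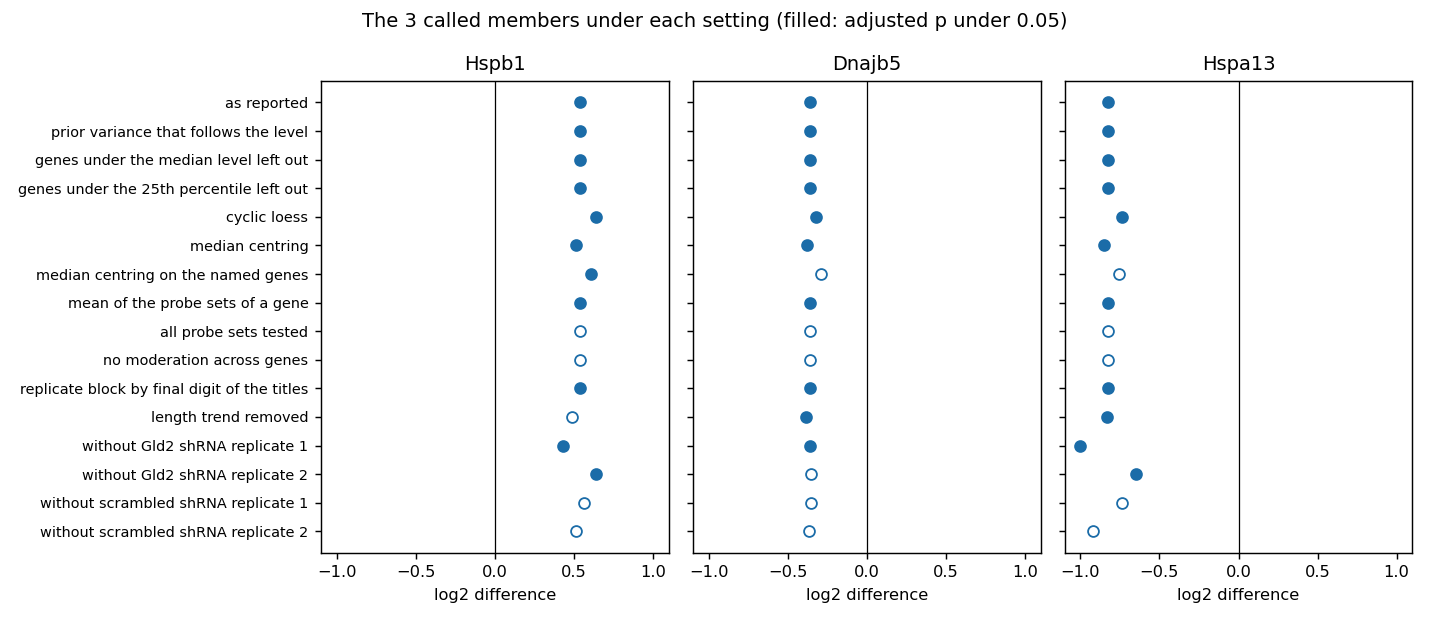
Log2 difference (horizontal axis) of Hspb1, Dnajb5 and Hspa13 as reported and under 15 other settings (vertical axis), with filled points for an adjusted p under 0.05. The sign of each gene is the same in every setting, with Hspb1 between 0.43 and 0.64, Dnajb5 between -0.39 and -0.29 and Hspa13 between -1.01 and -0.65, while calls are lost in 5 settings for Hspb1 and for Hspa13 and in 6 for Dnajb5.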

How the data were processed

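Poly(A) RNA of 4 cultures was measured on whole-transcript arrays. The deposited log2 values come from RMA and affy, per the submitters' processing notes. The sources used here give no versions or settings. Of 28826 probe sets 15209 had 1 symbol, 306 several and 13311 none, giving 14497 genes, each read from its probe set with the highest mean. All member symbols matched RefSeq (GRCr8). No detection calls were used. Precision is limited by the number of arrays.

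Groups were compared with lmFit and eBayes of limma 3.58.1 (R 4.3.3). Its two-sided p-values were adjusted by Benjamini-Hochberg across 14497 genes at a threshold of 0.05, with 2 residual degrees of freedom and 3.96 from moderation. The fit was tested on simulated data.

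Members, lists and alternatives were chosen with earlier results of these data known. Genes given in full were those past the threshold, those with unadjusted p under 0.05 whose groups did not overlap, and in each class the highest mean, largest rise and largest fall. In pathway lists, genes past the threshold (the 5 largest changes where more passed) and up to 4 with the smallest p were named. Other genes, such as Eif2ak2, Dnajb1, Dnajb2, Dnajb11 and Dnajc5, were added for their roles after values were seen. Alternatives were a level-dependent prior variance, filters at the median and 25th percentile, cyclic loess and median centring over all probe sets. Centring on the named genes, added later, used the median of all 14497 genes tested. Further settings were the mean of probe sets, all probe sets, no moderation and a block. The remaining ones were removal of a lowess trend with gene length (span 0.3) and leaving out each culture. A summed level is the log2 of the summed unlogged values.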

Additional observations from a re-analysis of the deposited data

How the results depend on the processing

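Under 15 settings no called member changed sign. Of 890 member values under them, 798 kept their sign and side of the threshold, 27 passed it newly, 16 lost it and 49, from 23 members near 0, changed sign without a call. Counts of higher and lower members, 1 and 2 as reported, were 2 and 7 with a level-dependent prior variance, 2 and 6 without genes under the median level, 1 and 5 without those under the 25th percentile, 3 and 2 with cyclic loess, 2 and 6 with median centring, 1 and 0 with centring on the named genes, and 0 and 2 with the length trend removed. They were 0 and 0 with all probe sets tested (limma, 5 and 6 at an unadjusted p under 0.05) and without moderation (3 and 4), and 0 and 1 at an unadjusted p under 0.05 with at least 1.5-fold. Leaving out a culture gave 0 to 4 higher and 0 to 5 lower members: 4 and 5 without Gld2 shRNA replicate 1, 1 and 1 without Gld2 shRNA replicate 2, and 0 and 0 in limma without scrambled shRNA replicate 1 (1 and 4 at an unadjusted p under 0.05) or 2 (2 and 6). These fits take the remaining culture of an arm to vary as much as the other arm.

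Over all genes the counts, 245 higher and 349 lower as reported, were 621 and 1611 with the level-dependent prior, 309 and 1287 and 348 and 949 with the filters, 370 and 378 with cyclic loess, 558 and 1367 with median centring, 218 and 94 with centring on the named genes, 197 and 116 with all probe sets, 1 and 0 without moderation (limma, 2273 at an unadjusted p under 0.05), 253 and 231 with the length trend removed, 136 and 75 by the fold rule, and 82 to 1283 and 3 to 1406 without 1 culture. The share of members called, beside that of all genes, was 14.8% and 15.4% with the level-dependent prior, 19.5% and 22.0% without genes under the median, 8.2% and 5.16% with cyclic loess, 3.28% and 1.87% without Gld2 shRNA replicate 2, and 0% and 1.09% with all probe sets tested.

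With the final digit of the titles as a replicate block, 1 member rose and 2 fell, and 233 genes rose and 332 fell. The labels do not say that the digit pairs cultures, and deviations of same-digit cultures correlated at 0.143. Signal over background is unknown, so dim members, such as Dnajc5g and Dnajb7, may be at background.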
